A study of Mus musculus with 4 samples.

Results

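Neuropeptides are short signalling peptides that neurons cut from larger precursor proteins, and the genes described here encode the precursors of 10 of them: galanin (Gal), vasoactive intestinal peptide (Vip), neuropeptide Y (Npy), somatostatin (Sst), substance P and neurokinin A (Tac1), the enkephalins (Penk), cholecystokinin (Cck), corticotropin-releasing hormone (Crh), PACAP (Adcyap1) and the CART peptides (Cartpt). They were taken as the rows with these 10 gene names, out of 56493 genes in the deposited count table, and all 10 were found. The genes were selected on their measured values in the contrast reported here, AAV2-CrAT against AAV2-MCS, with the high counts of Gal and Vip in 1 library known. Their values in that contrast are therefore given as a description, with no test.

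RNA was sequenced from retinal cells of wild-type mice. The cells had been sorted by fluorescence, and their label is retinal ganglion cell, the neuron that sends its axon through the optic nerve to the brain. In the CrAT group AAV2-CrAT, an adeno-associated virus vector named for carnitine acetyltransferase, was injected into the vitreous of the eye. In the MCS group the vector was AAV2-MCS, a name that the labels do not spell out. The nerve was crushed a month after the injection in both groups, so neither group is uninjured, and each group holds 2 libraries. All 4 titles also carry the tag NCd8, which the labels do not explain. The promoter of the vectors, the fluorescent marker of the sort, the age of the mice and the time between crush and sort are not spelled out in the labels. Whether the replicates of a group are separate animals is not stated in the labels. A p-value given below thus rests on the spread between these libraries, which may be technical.

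In the retina most neuropeptides are made by amacrine cells, the inhibitory interneurons of the inner retina, which usually also release GABA or glycine. A few come from ganglion cells: PACAP is known from the melanopsin ganglion cells that sense ambient light, and CART from direction-selective ganglion cells of the mouse. The peptides are packed in dense-core vesicles and act mainly on G protein-coupled receptors, several of which raise or lower cyclic AMP in the receiving cell. Of the 10 genes, 6 (Adcyap1, Cartpt, Cck, Gal, Npy and Vip) carried the ontology term neuropeptide hormone activity in the deposited annotation, which 28 genes of the table carried, and all 10 carried extracellular region, with 1733 genes.

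The promoters of 4 of the genes are shown first, because they bear on the cyclic AMP pathway through which several of these peptides act and which is known to switch on some of their genes. They are the genes that hold the whole cyclic AMP response element, Cartpt and Sst, and the genes whose CrAT libraries both lay above both MCS libraries, Vip and Gal. Each sequence is the 250 bases before the gene's start in RefSeq on GRCm38.p6, written 5′ to 3′ on the strand of the gene. Capitals mark TGACG or its reverse complement CGTCA, the core of the element, which TGACGTCA holds in both directions. The windows are chr13:99900684-99900933 on the minus strand for Cartpt, chr16:23890845-23891094 on the minus strand for Sst, chr10:5638968-5639217 on the plus strand for Vip and chr19:3414545-3414794 on the minus strand for Gal. Of the other members, Npy and Tac1 lie on chromosome 6, Crh on 3, Penk on 4, Cck on 9 and Adcyap1 on 17.
Cartpt: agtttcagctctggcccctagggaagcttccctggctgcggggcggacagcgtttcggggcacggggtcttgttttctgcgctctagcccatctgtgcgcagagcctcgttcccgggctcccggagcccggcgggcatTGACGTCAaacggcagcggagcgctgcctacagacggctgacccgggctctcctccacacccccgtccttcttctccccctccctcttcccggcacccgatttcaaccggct
Sst: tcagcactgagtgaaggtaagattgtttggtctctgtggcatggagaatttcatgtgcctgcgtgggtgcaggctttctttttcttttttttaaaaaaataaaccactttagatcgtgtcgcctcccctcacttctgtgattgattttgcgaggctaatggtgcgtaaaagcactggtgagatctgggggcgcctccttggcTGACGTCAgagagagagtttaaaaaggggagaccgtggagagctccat
Vip: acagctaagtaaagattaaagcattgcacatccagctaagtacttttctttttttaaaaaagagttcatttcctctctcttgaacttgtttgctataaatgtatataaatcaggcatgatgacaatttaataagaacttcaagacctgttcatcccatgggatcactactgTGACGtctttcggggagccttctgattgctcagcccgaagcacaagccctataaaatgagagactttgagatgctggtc
Gal: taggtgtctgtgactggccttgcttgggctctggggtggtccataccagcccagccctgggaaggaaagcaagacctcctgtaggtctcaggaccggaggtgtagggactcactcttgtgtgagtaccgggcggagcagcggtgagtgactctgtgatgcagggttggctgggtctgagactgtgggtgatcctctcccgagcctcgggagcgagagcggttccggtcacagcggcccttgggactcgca
The whole element began 112 bases before the start in Cartpt and 48 bases before it in Sst. It was in these 2 of the 8 member genes with a promoter entry and in 478 of 27025 mouse genes, or 1.77%. The core alone, on either strand, was in 6 of the 8 (Adcyap1, Cartpt, Cck, Sst, Tac1 and Vip), and in 19.8% of all genes. In Vip it began 79 bases before the start, and the windows of Gal and Npy did not hold these letters. TGANTCA, the AP-1 motif, was in 0 of the 8 genes and in 7.82% of all genes. TATAAA, on either strand, was in Adcyap1 and Vip and in 14.3% of all genes. A match is a run of letters in this window and not a measured binding site.

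Depth was 24631411 and 26702852 counts in CrAT replicates 1 and 2, against 24494253 and 27097438 counts in MCS replicates 1 and 2. The limit that 3 counts set was 0.109 to 0.126 CPM (counts scaled to the size of the library, with TMM factors). Such limits and the intervals below hold for counting error alone, because the reads were amplified and carry no molecular identifiers. Transcripts of Crat itself were 72.5 and 49.9 CPM in CrAT against 38.3 and 47.7 CPM in MCS. The CrAT libraries lay above the MCS libraries, by no more than the replicates differed among themselves (adjusted p = 1 by edgeR). The labelled cell type was checked against its markers. Summed ganglion cell markers (22 genes) were 417 and 510 CPM in CrAT against 397 and 395 CPM in MCS. Large parts of this sum were Isl1, also a bipolar cell marker, and Jam2, both lower in replicate 2. Isl1 was 127.1 and 79.02 CPM in CrAT against 89.76 and 53.85 CPM in MCS. Jam2 was 132.5 and 70 CPM in CrAT against 191.5 and 76.2 CPM in MCS. Of the 19 ganglion cell markers tested, 14 were higher in replicate 2 of both groups. The 12 rod markers were far more abundant, at 50330 and 27160 CPM in CrAT against 49150 and 29130 CPM in MCS. Rbpms, an RNA-binding protein that marks ganglion cells, was 4.19 and 2.75 CPM in CrAT against 3.499 and 8.58 CPM in MCS, and the rod transducin Gnat1 was 10230 and 5301 CPM in CrAT against 9644 and 4421 CPM in MCS. The libraries therefore held RNA of many retinal cell types, amacrine cells among them. In bulk RNA of this kind, fewer cells of a type and less RNA per cell cannot be told apart.

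The 10 genes together had 194 and 860 CPM in CrAT replicates 1 and 2, against 95.03 and 513 CPM in MCS replicates 1 and 2. Cartpt made up 83.4% and 85.2% of this sum in CrAT and 49.7% and 90.9% in MCS. Without Cartpt the sum was 32.1 and 127 CPM in CrAT against 47.8 and 46.4 CPM in MCS, so that CrAT replicate 2 stood above the other 3 libraries. More than 3 counts were reached by 8 and 9 of the 10 genes in CrAT and by 5 and 7 in MCS. Per length of transcript, in the authors' FPKM averaged over the 4 libraries, Cartpt was the most abundant at 276 FPKM, followed by Npy at 40.1, Gal at 11.8, Penk at 7.06, Cck at 5.55, Tac1 at 1.81, Vip at 0.932 and Adcyap1 at 0.788 FPKM. Crh at 0.163 and Sst at 0.0141 FPKM came last. The range of each gene over the 4 libraries overlapped that of its neighbours in this order. Within each single library, though, Cck was above Tac1, and Adcyap1 was never below Crh. In CrAT replicate 2 Cartpt lay above 99.8% of the protein-coding genes with a value, and Vip above 48.0% of them.

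**Figure D1:**
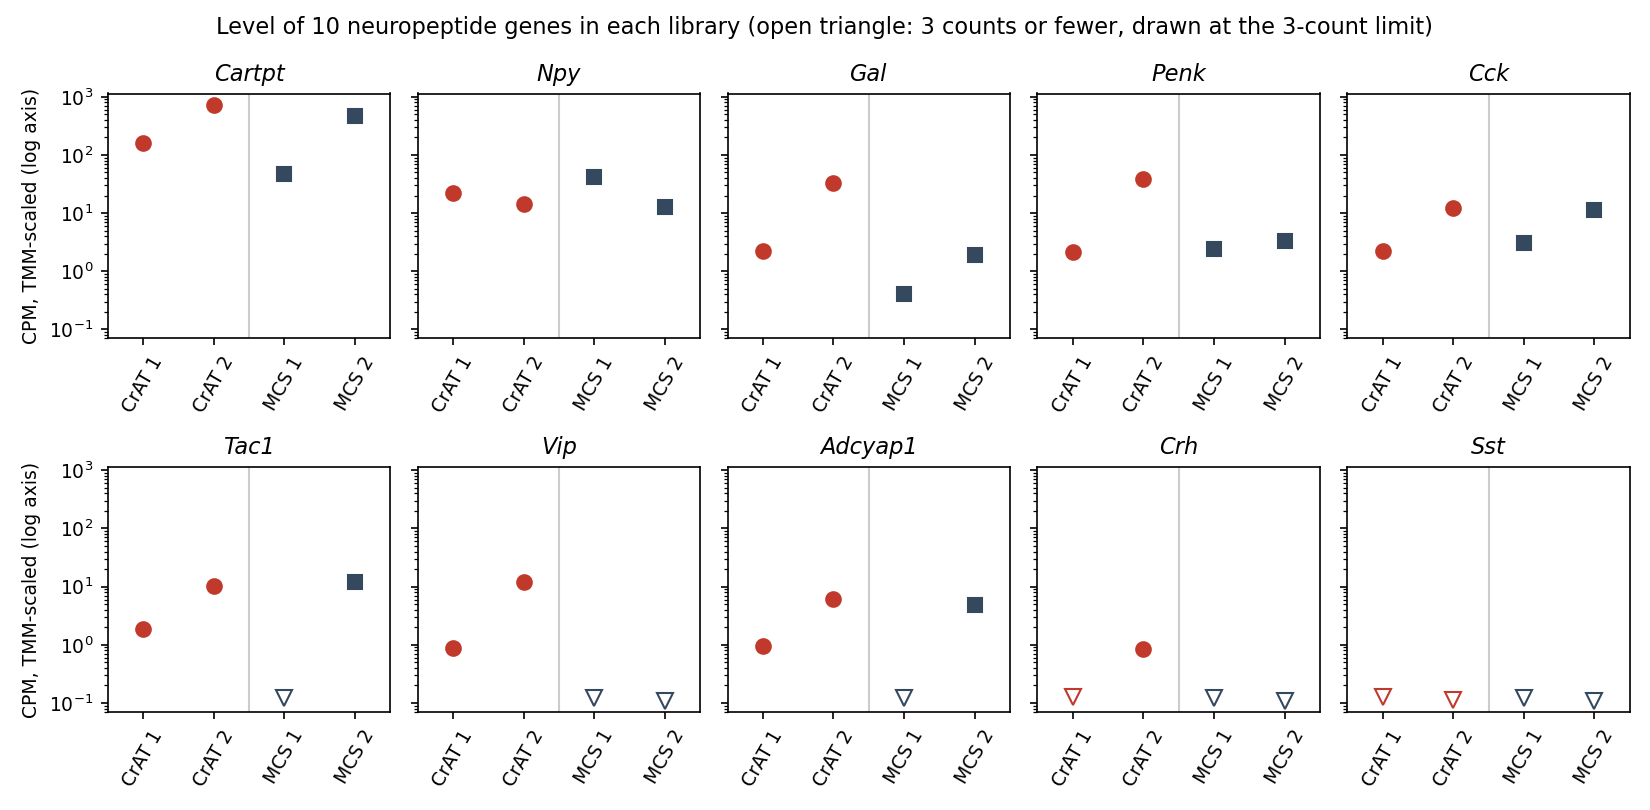
Level of each of the 10 genes in each library, in TMM-scaled CPM on a log axis, with CrAT as circles and MCS as squares; open triangles stand at the limit of 3 counts for libraries with 3 counts or fewer. Vip and Gal are the genes with both CrAT marks above both MCS marks, those of Vip in MCS being open triangles. In 7 of the 10 genes the highest library is CrAT replicate 2.

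Vip and Gal were the members in which the groups did not overlap. Vip (ENSMUSG00000019772), the precursor of vasoactive intestinal peptide, which is made by a set of GABAergic amacrine cells, had 21 and 313 counts in CrAT replicates 1 and 2, against 0 and 3 counts in MCS replicates 1 and 2. These are 0.880 and 11.8 CPM in CrAT against 0 and 0.109 CPM in MCS. Both CrAT libraries were above both MCS libraries, and 92.3% of the CPM summed over the 4 libraries came from CrAT replicate 2. Summed over the libraries there were 334 counts in CrAT against 3 in MCS, a ratio of 112 after scaling for depth, with a 95% interval of 38.0 to 545 that covers counting error only, not the spread between replicates, and is no test of the groups. The fitted log2 fold change was 6.70 (SE 1.65), a value that depends on the prior count because 1 MCS library is at 0. With 1 library left out it ran from 3.88 (without CrAT replicate 2) to 10.3 (without MCS replicate 2, against an MCS library at 0). Gal (ENSMUSG00000024907), the precursor of galanin, a peptide that sensory neurons of rodents make in quantity after nerve injury, had 53 and 868 counts in CrAT against 10 and 53 counts in MCS. These are 2.22 and 32.7 CPM in CrAT against 0.402 and 1.92 CPM in MCS. CrAT replicate 1 and MCS replicate 2 had the same raw count and were close in CPM, so the groups were set apart by a narrow margin there and widely in CrAT replicate 2, which held 87.8% of the summed CPM. The mean was 17.5 ± 21.6 CPM over the CrAT libraries against 1.16 ± 1.07 CPM over the MCS libraries (SD, n = 2 each), which is 15.1-fold. On the log2 scale the change was 3.90 (SE 1.35), and with 1 library left out it ran from 0.95 (without CrAT replicate 2) to 5.43 (without MCS replicate 2).

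Penk, the precursor of the enkephalins, opioid peptides of amacrine cells, had 51 and 1023 counts in CrAT against 60 and 92 counts in MCS, or 2.14 and 38.6 CPM in CrAT against 2.41 and 3.33 CPM in MCS. CrAT replicate 2 stood far above the other 3 libraries, while CrAT replicate 1 was the lowest of all, so the groups overlapped. The mean was 20.4 ± 25.8 CPM over the CrAT libraries against 2.87 ± 0.650 CPM over the MCS libraries (SD, n = 2 each). The log2 fold change of 2.82 (SE 1.19) turned to -0.41 without CrAT replicate 2 and was 3.75 without CrAT replicate 1. Crh, the precursor of corticotropin-releasing hormone, known from a set of amacrine cells, had 0 and 22 counts in CrAT against 0 and 1 in MCS and did not pass the filter on low counts. Nearly all of it was again in CrAT replicate 2, with a ratio of 22.1 for 22 against 1 counts and a counting interval of 3.57 to 912. The libraries without a count, replicate 1 of each group, allow up to 0.126 CPM for CrAT and 0.121 CPM for MCS. Sst, the precursor of somatostatin, another amacrine peptide, had 1 and 0 counts in CrAT against 0 and 0 in MCS. It was at or under the 3-count limit in every library, so no fold is given.

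Cartpt had 3855 and 19432 counts in CrAT against 1174 and 12873 counts in MCS, or 162 and 733 CPM in CrAT against 47.2 and 466 CPM in MCS. The groups overlapped, since CrAT replicate 1 lay between the MCS libraries. Replicate 2 exceeded replicate 1 by 4.54-fold in CrAT and 9.87-fold in MCS, against 1.57-fold for CrAT replicate 2 over MCS replicate 2. The log2 fold change of 0.80 (SE 1.09) turned to -0.65 without CrAT replicate 2, and to -0.06 when MCS replicate 1 was left out. It was 1.51 when CrAT replicate 1 and 3.25 when MCS replicate 2 was omitted. Npy, whose product is a peptide of amacrine cells and, in other tissues, of sympathetic neurons, had 520 and 378 counts in CrAT against 1043 and 347 in MCS, or 21.8 and 14.3 CPM in CrAT against 41.9 and 12.6 CPM in MCS. It was the one member kept whose replicate 1 was the higher library in both groups. The groups overlapped, with a log2 fold change of -0.60 (SE 0.60) that was 0.52 without MCS replicate 1 and -1.21 without MCS replicate 2.

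The other 3 members kept, Cck, Tac1 and Adcyap1, differed little between the second replicates of the groups, where CrAT was 1.07, 0.847 and 1.27 times MCS. Cck, whose peptide is known from amacrine cells, had 53 and 324 counts in CrAT against 76 and 314 in MCS. Both first replicates were low, and the groups overlapped. The log2 fold change was 0.00 (SE 0.92), on either side of 0 depending on the scaling (-0.04 with library totals only), -1.68 without CrAT replicate 2 and -0.65 without MCS replicate 1, against 0.76 without CrAT replicate 1 and 1.24 without MCS replicate 2. Tac1, the precursor of substance P and neurokinin A, had 45 and 275 counts in CrAT against 0 and 338 in MCS, with a log2 fold change of 0.00 (SE 1.77) that was also -0.04 with library totals only. It was -1.68 without CrAT replicate 2 and -0.99 when MCS replicate 1 was left out, but 0.76 when CrAT replicate 1 was. Its highest library was MCS replicate 2, and 1 library of the same group was at 0. Adcyap1, the PACAP precursor, had 23 and 162 counts in CrAT against 0 and 133 in MCS, with a log2 fold change of 0.55 (SE 1.69), and -1.30 without CrAT replicate 2, -0.44 without MCS replicate 1 and 1.34 without CrAT replicate 1. Leaving out MCS replicate 2 sets Tac1 and Adcyap1 against a library at 0, where a fitted value is no bound. In both Tac1 and Adcyap1, CrAT replicate 1 lay between the MCS libraries, so the groups overlapped.

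Of the 8 members kept, 7 had a log2 fold change above 0, with Cck and Tac1 among these at 0.00, and Npy had one below it. The median was 0.68, against 0.01 over the 19638 genes tested, of which 50.6% were above 0. That median is the midpoint of Adcyap1 and Cartpt, so it does not depend on the size of the Vip estimate. Without CrAT replicate 2 only Gal and Vip had a positive log2 fold change and the median was -0.53. Without MCS replicate 2 the filter kept 9 members, Crh among them, and the median was 5.43. Vip, Tac1, Adcyap1 and Crh then stand against an MCS library at 0, and their fitted values are no bounds. Vip passed the filter only through its CrAT libraries, so nothing is drawn from the count of members that passed. Both CrAT libraries were above both MCS libraries in 2 members, as in 15.0% of the genes tested, and below them in 0, as in 16.6% of genes. Since the genes were chosen by their values in this contrast, nothing is read from these shares. CrAT replicate 2 was the highest library for 6 of the 8 members kept, as for 21.9% of the genes tested, and this share too belongs to the contrast that chose the genes.

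**Figure D2:**
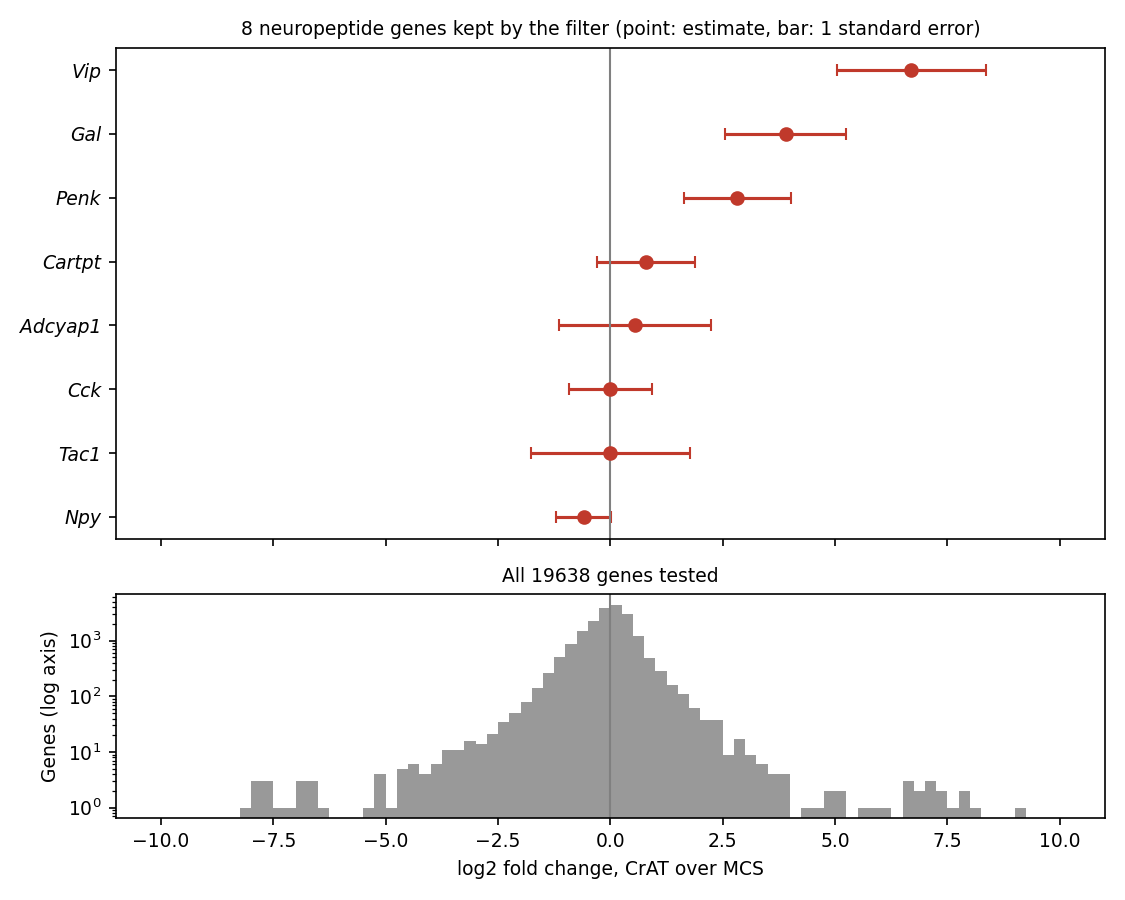
Upper panel: edgeR log2 fold change, CrAT over MCS, of the 8 neuropeptide genes kept, with bars of 1 standard error; lower panel: number of genes by log2 fold change over all 19638 genes tested, on a log axis. Vip at 6.70, Gal at 3.90 and Penk at 2.82 lie in the upper tail, and the other 5 lie between -0.60 and 0.80.

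Within the groups most members were higher in the second replicate. It exceeded the first in both groups in 7 of the 8 members kept, Npy being the exception, and in 32.6% of the genes tested. An excess of at least 2-fold in both groups was seen in 6 of the 8 members and in 4.61% of genes. These counts are a description without a test, since the high values of CrAT replicate 2 were known when the genes were chosen, and for Vip the excess in MCS is 3 counts against 0. Summed without Cartpt, the members in MCS stood at 47.8 CPM in replicate 1 and 46.4 CPM in replicate 2. Most of the first sum was Npy, at 41.95 CPM in MCS replicate 1 against 12.57 CPM in MCS replicate 2. Gal, Penk, Cck, Tac1 and Adcyap1 were each higher in MCS replicate 2. In CrAT the fold of replicate 2 over replicate 1 ran from 0.655 for Npy to 18.1 for Penk, with 14.8 for Gal and 13.4 for Vip. In MCS it ran from 0.300 for Npy to 9.87 for Cartpt, with 4.77 for Gal and 1.38 for Penk, leaving out Vip, Tac1 and Adcyap1, for which MCS replicate 1 was at 0. Amacrine transcripts moved with this. The 26 general amacrine markers summed to 1526 and 3599 CPM in CrAT against 1722 and 2510 CPM in MCS. Gad1, a GABA-making enzyme of these cells, stood at 75.3 and 691 CPM in CrAT against 33.9 and 260 CPM in MCS. Its partner enzyme Gad2 was 13.2 and 46.3 CPM in CrAT against 9.77 and 30.6 CPM in MCS, and the vesicular transporter of GABA and glycine, Slc32a1, was 7.04 and 23.5 CPM in CrAT against 6.80 and 20.9 CPM in MCS. All 3 of these genes were highest in CrAT replicate 2. Of the 23 amacrine markers tested, 16 were higher and 7 lower in CrAT, with a median log2 fold change of 0.24, and 15 were highest in CrAT replicate 2. Of the 26 markers, 1 had no count in CrAT replicate 1 and 2 had none in each other library. These were Ptf1a and the cholinergic genes Chat and Slc18a3, which had at most 13 counts anywhere. Slc17a6, the vesicular glutamate transporter of ganglion cells, was 1.26 and 19.2 CPM in CrAT against 0.241 and 5.54 CPM in MCS. The part of these cell types in the neuropeptide values was not tested.

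The neuropeptide genes were therefore also set against amacrine transcripts within each library. Gal was 2.95% and 4.74% of Gad1 in CrAT against 1.19% and 0.737% of Gad1 in MCS, so both CrAT libraries remained above both MCS libraries, and the first and second replicates of a group were closer than in CPM. Vip was 1.17% and 1.71% of Gad1 in CrAT against 0% and 0.0417% in MCS, also without overlap. Penk, at 2.84% and 5.59% of Gad1 in CrAT against 7.12% and 1.28% in MCS, overlapped. Cck was 2.95% and 1.77% of Gad1 in CrAT against 9.02% and 4.37% in MCS, with both CrAT libraries below both MCS libraries. Cartpt was 214% and 106% of Gad1 in CrAT against 139% and 179% in MCS, without a common direction. The CPM of Npy was 28.9% and 2.06% of that of Gad1 in CrAT against 124% and 4.83% in MCS, the widest gap between replicates of these genes. Over the 8 members kept, the median log2 ratio of CrAT to MCS means was 0.01 per Gad1, 0.41 per summed amacrine marker and 0.36 per summed ganglion cell marker, and 5 of the 8 were above 0 on each base. Without CrAT replicate 2 these medians were 0.26, -0.03 and -0.62. The ganglion cell base includes Isl1 and Jam2, which were lower in replicate 2 of both groups, unlike 14 of the 19 ganglion cell markers tested. With the summed amacrine markers as the base, Gal was 0.145% and 0.910% in CrAT against 0.0234% and 0.0765% in MCS, and Penk 0.140% and 1.07% in CrAT against 0.140% and 0.133% in MCS. Per summed amacrine markers Gal and Vip were above without overlap and no member was below, so the gap in Cck was seen per Gad1 and not on this base.

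**Figure D3:**
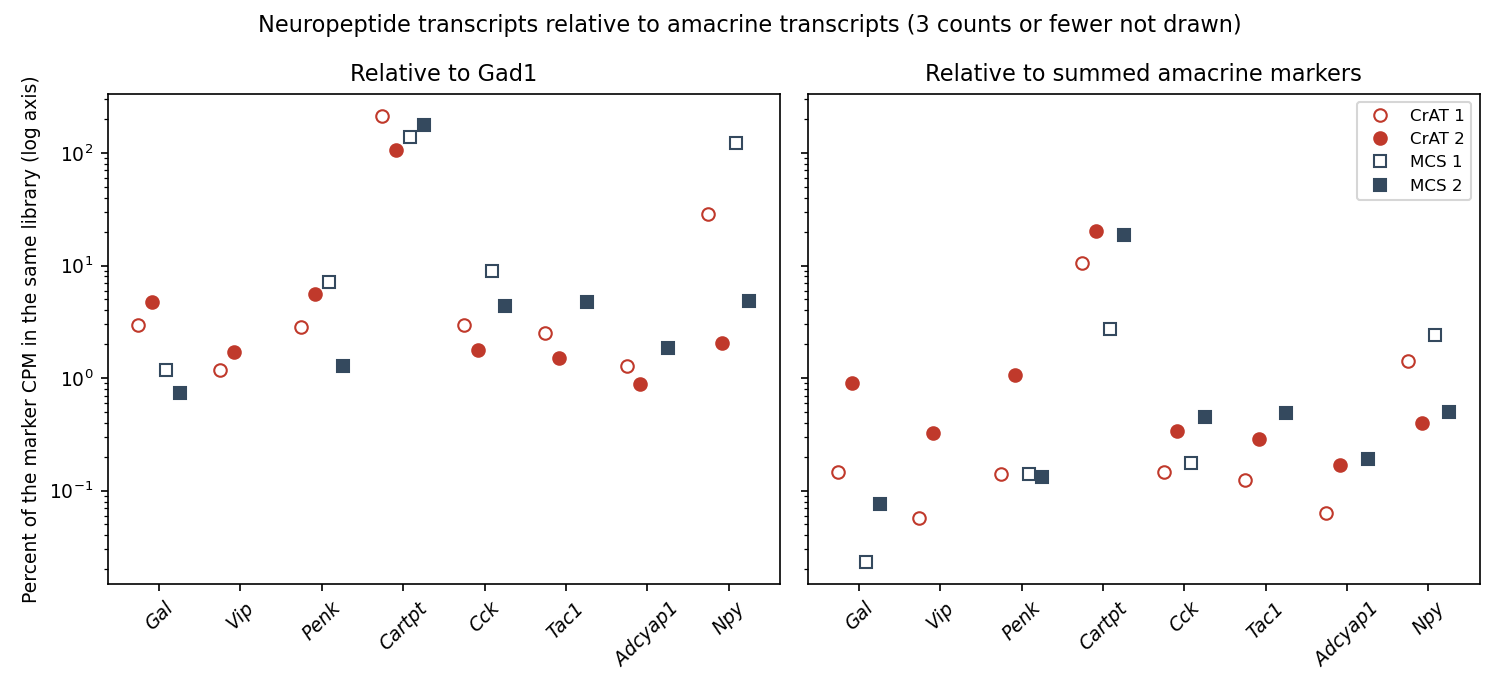
CPM of each neuropeptide gene as a percentage of the CPM of Gad1 (left) or of 26 summed amacrine markers (right) in the same library, on a log axis, with CrAT as circles and MCS as squares, replicate 1 open and replicate 2 filled, and values of 3 counts or fewer left out. For Gal both circles lie above both squares in both panels, and for Cck they lie below them on the left.

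Genes whose profile over the 4 libraries lay nearest to a member were looked up for the 3 members with the widest range, Tac1, Vip and Adcyap1, whose log2 CPM spanned 7.31, 7.26 and 6.31. Nearness is the Euclidean distance between centred log2 CPM profiles, over 4 libraries and 13602 genes, and is given as a description. Among the nearest to Adcyap1 were the betaine and GABA transporter gene Slc6a12 (distance 0.483), the growth factor gene Fgf3 (0.496), Cntnap4 (0.574) and Cpne6 (0.594). These 4 shared its shape, low in MCS replicate 1 and high in both second replicates. Slc6a12 was also nearest to Tac1 (0.817), followed by the plakophilin gene Pkp1 (0.823), Adcyap1 itself (0.963), C1ql1 (1.04) and Opn4 (1.21), the melanopsin gene of light-sensing ganglion cells. Opn4 had 14 and 208 counts in CrAT against 0 and 290 counts in MCS, beside 45 and 275 counts in CrAT against 0 and 338 in MCS for Tac1. For Vip the nearest of all was another member, Gal (1.76), followed by Apol6 (1.77), Cyp4x1 (2.25), the xanthine dehydrogenase gene Xdh (2.31) and the synaptic organiser gene Cbln4 (2.56). No gene lay within a distance of 1 of Vip, against 3 for Tac1 and 13 for Adcyap1.

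**Figure D4:**
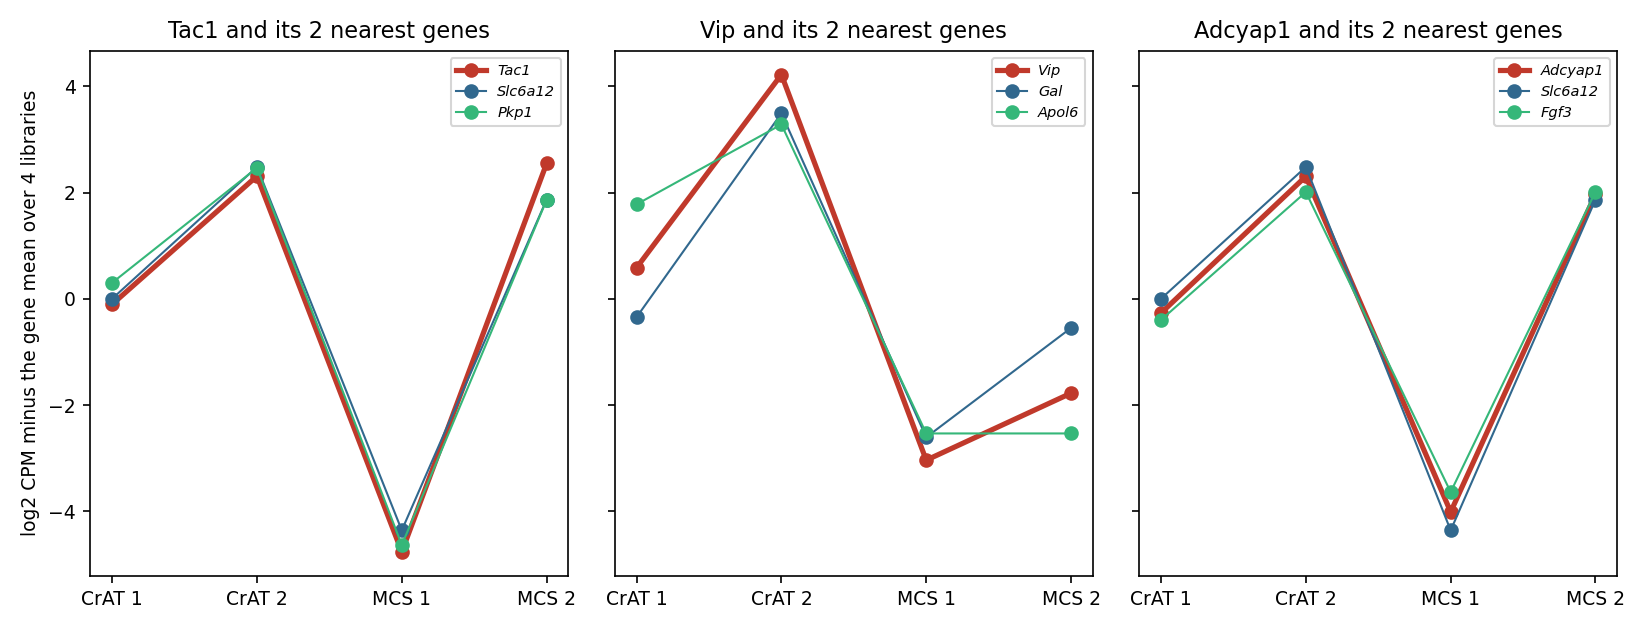
Centred log2 CPM (prior count 2) in each library for Tac1, Vip and Adcyap1 (thick red lines) and the 2 genes nearest to each (thin lines). The Tac1 and Adcyap1 profiles dip in MCS replicate 1 and are high in both second replicates, while the Vip profile is low in both MCS libraries.

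The rest of the peptide pathway was taken from 6 lists and tested in the fit across all genes. No gene of the table passed an adjusted p of 0.05 (0 of 19638, or 0.0%), and so none of these lists did (edgeR quasi-likelihood test, lowest adjusted p = 1). At an unadjusted p under 0.05 there were 815 genes, 251 higher in CrAT (1.28% of the genes tested) and 564 lower (2.87%), and DESeq2 called 55 genes at its own adjusted p, none of them in these lists. The counts below are given beside these shares. Of the 6 list medians below, that of the other precursors kept its sign with each library left out, and the other 5 were near 0 and changed sign when 1 library was left out. The highest and lowest medians after such an omission are given with each of them.

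Of 45 other neuropeptide precursors and further peptide genes 18 were tested, with 5 log2 fold changes above 0 and 13 below. The median was -0.25 (-0.85 without MCS replicate 1 to -0.05 without CrAT replicate 1). The list is broader than neuropeptides, as it holds the growth factor gene Igf1 and the vascular peptide genes Adm, Edn1 and Edn2. The 5 above 0 were Grp (1.85), Nucb2 (0.38), Igf1 (0.26), Adm (0.04) and Nppb (0.00). Edn1 and Edn2 were among the 13 below. Of the 18, 1 had an unadjusted p under 0.05. Apln, the precursor of apelin, a peptide of blood vessels, had 3 and 1 counts in CrAT against 85 and 28 in MCS, a log2 fold change of -4.70 (SE 1.04, edgeR adjusted p = 1). Both CrAT libraries were below both MCS libraries, and the same held for Edn1 (endothelin, log2 fold change -1.47), Calca (CGRP and calcitonin, -0.73) and Pdyn (the dynorphin precursor, -0.67). With Ghrh (-0.91), these were the 5 of the 18 with both CrAT libraries below, beside 16.6% of the genes tested. In 1, Grp, both CrAT libraries were above, beside 15.0% of the genes tested. Grp had 16 and 32 counts in CrAT against 0 and 14 in MCS. Pdyn, the other large opioid precursor beside Penk, had 991 and 728 counts in CrAT against 1109 and 1804 in MCS. CrAT replicate 2 was thus its lowest library and the highest one of Penk. In 2 of the 18 genes of this list CrAT replicate 2 was the highest library, as in 21.9% of the genes tested.

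Receptors of the 10 peptides were represented by 16 of 27 genes tested, with 9 higher, 7 lower and a median log2 fold change of 0.07 (-0.90 without CrAT replicate 2 to 0.28 without CrAT replicate 1). These counts include Crhbp, which encodes a binding protein of corticotropin-releasing hormone and no receptor. They also include Tacr3, whose main peptide, neurokinin B, is not among the 10. Npy6r, a receptor of the neuropeptide Y family, had 5 and 6 counts in CrAT against 40 and 31 in MCS (log2 fold change -2.62, SE 0.75, edgeR adjusted p = 1), and was the one receptor gene at an unadjusted p under 0.05. Among the tachykinin receptors tested, the CrAT libraries were above the MCS libraries in Tacr1 and Tacr3. Over the 16 genes tested this held in 2 and the reverse in 1, beside 15.0% and 16.6% of all genes tested. Tacr2, with 2 and 0 counts in CrAT against 5 and 0 in MCS, did not pass the filter on low counts. Tacr1, the receptor of substance P, had 80 and 326 counts in CrAT against 22 and 88 in MCS. Its CPM of 3.35 and 12.3 in CrAT against 0.885 and 3.19 in MCS did not overlap, with a log2 fold change of 1.94 (SE 0.86). Tacr3, the receptor of neurokinin B, had 337 and 566 counts in CrAT against 119 and 360 in MCS, and a log2 fold change of 0.99 (SE 0.56). Npy5r, another receptor of neuropeptide Y, was at 0 and 68 counts in CrAT against 0 and 11 in MCS. None of these passed over all genes. The somatostatin receptor gene Sstr2, chosen after its values were seen, had 122 and 1066 counts in CrAT against 22 and 593 in MCS, in libraries with at most 1 count of Sst. The galanin receptor gene Galr2, chosen in the same way, did not pass the filter on low counts. It had 0 and 0 counts in CrAT against 7 and 49 in MCS.

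Prohormone processing, the cutting and amidation of precursors, gave 15 of 16 genes tested, 7 higher and 8 lower, with a median log2 fold change of -0.05 (-0.42 without CrAT replicate 2 to 0.10 without MCS replicate 2). In 5 of the 15 both CrAT libraries were below both MCS libraries (16.6% of the genes tested) and in 1 above (15.0%). Here 4 genes had an unadjusted p under 0.05, all lower in CrAT. Pam, the enzyme that amidates the ends of many neuropeptides, had 562 and 783 counts in CrAT against 930 and 3187 in MCS (log2 fold change -1.53, SE 0.55). The convertases Pcsk4 (-0.999, SE 0.35), Pcsk5 (-1.17, SE 0.41) and Furin (-1.20, SE 0.45) were also below MCS in both CrAT libraries, all with an edgeR adjusted p of 1. The convertases best known from dense-core vesicles, Pcsk1 and Pcsk2, were not among them. Pcsk1 had 17 and 157 counts in CrAT against 18 and 93 in MCS, and Pcsk2 had 1626 and 1944 counts in CrAT against 1160 and 1737 in MCS. The vesicle carboxypeptidase gene Cpe, chosen like Pcsk1 and Pcsk2 after its values were seen, was the most abundant of the list per length in FPKM, with 43961 and 39158 counts in CrAT against 46686 and 43247 in MCS.

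All 25 genes of the dense-core vesicle itself were tested, 14 higher and 11 lower, with a median log2 fold change of 0.18 (-0.05 without CrAT replicate 2 to 0.43 without MCS replicate 2). In 6 both CrAT libraries were above both MCS libraries (15.0% of the genes tested) and in 0 below (16.6%). Chgb, the precursor of the vesicle granin chromogranin B, had 6396 and 11459 counts in CrAT against 4350 and 5522 in MCS, and its log2 fold change was 0.90 (SE 0.34). It was the one gene of this list at an unadjusted p under 0.05, and its edgeR adjusted p was 1. The vesicle membrane protein gene Ptprn2 (0.76), the fusion protein gene Snap25 (0.54) and the synaptotagmin gene Syt4 (0.44) were likewise above in both CrAT libraries. Peptide degradation gave 10 of 13 genes tested, 5 higher and 5 lower with a median of -0.02 (-0.28 without CrAT replicate 1 to 0.17 without CrAT replicate 2), and 0 at an unadjusted p under 0.05 in edgeR. Its genes with the smallest p were the peptidase genes Thop1 (-0.36), Ece2 (0.66), Prep (0.23) and Lnpep (-0.24).

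Cyclic AMP and CREB signalling, through which several of these peptide genes are known to be switched on, had all 30 genes tested, 14 higher and 16 lower, with a median log2 fold change of -0.05 (-0.05 without MCS replicate 1 to 0.05 without MCS replicate 2). Crtc3, a coactivator of the transcription factor CREB, had 280 and 373 counts in CrAT against 691 and 1227 in MCS, a log2 fold change of -1.49 (SE 0.38, edgeR adjusted p = 1). The related coactivators Ep300 (-0.78) and Crebbp (-0.59) were also below MCS in both CrAT libraries, without passing the test. Crem, a relative of CREB whose short forms repress these genes, had 958 and 1057 counts in CrAT against 668 and 627 in MCS (log2 fold change 0.69). Both CrAT libraries were above both MCS libraries in 6 genes of the list and below in 6, beside 15.0% and 16.6% of the genes tested.

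**Figure D5:**
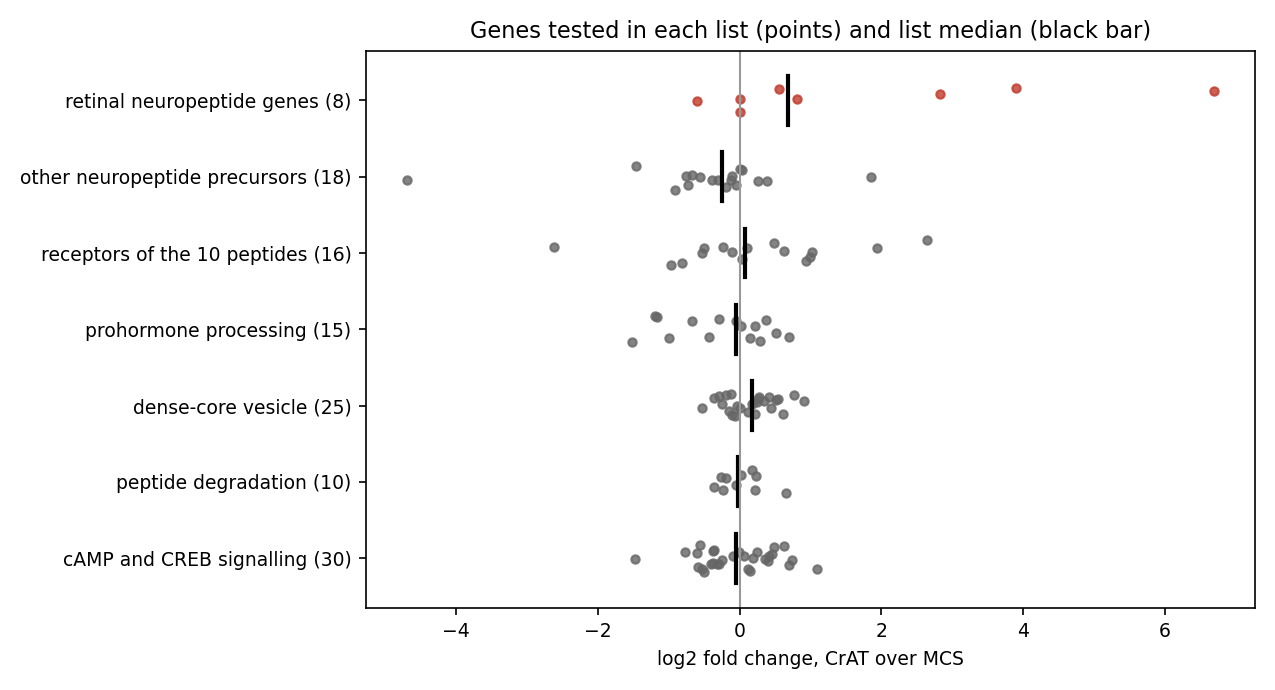
edgeR log2 fold change, CrAT over MCS, of each gene tested (points, spread vertically for legibility) in the neuropeptide genes (red) and the 6 other lists of the pathway (grey), with the list median as a black bar. The neuropeptide median stands at 0.68, with 3 genes above 2, and the other medians lie between -0.25 and 0.18.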

How the data were processed

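RNA sequencing measured expression in 4 libraries of sorted mouse retinal cells, 2 of AAV2-CrAT and 2 of AAV2-MCS, grouped and numbered by their titles. Per the labels' protocols, RNA came from a Qiagen micro kit and cDNA from the SMART-seq v4 kit, which copies whole polyadenylated transcripts without keeping their strand, so antisense reads cannot be told apart. STAR 2.7.2b, GRCm38.p6 and mm10 are named in the submitters' processing notes. The annotation and the read counter are not named there. The authors deposited a count table, whose whole numbers were rounded from fractional values (43.6% to 44.9% of values above 0 were not whole within 0.02, recovered from the FPKM), and the values were used as estimated counts. Whole counts had been assumed in the design; the test is unchanged. The authors also deposited FPKM, per kilobase of summed exons and scaled to the counted reads. Each table held 2 columns of other samples, 4 in all, which were not used.

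Genes were kept with filterByExpr (19638), scaled by TMM (factors 0.970 to 1.02) and fitted with edgeR 4.0.16's quasi-likelihood test in R 4.3.3, group as the only term, two-sided, p-values being adjusted by Benjamini-Hochberg over the genes kept and called under 0.05. The biological coefficient of variation was 0.404. CPM are TMM-scaled. Of single values, 2 libraries against 2 cannot give a two-sided permutation p below 0.333, so none was computed. The procedure was tested on simulated data. Promoters are RefSeq's on GRCm38.p6, and motifs were searched on both strands.

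The 10 members and the lists were chosen with earlier results of these data known. The genes named were the 10 members, up to 4 genes with the smallest p of each other list, the 5 genes (mean CPM at least 1, no predicted genes) nearest to the 3 members of widest range, Crat and 6 marker genes (Gad1, Gad2, Slc32a1, Slc17a6, Rbpms and Gnat1). A gene among the nearest is not reported here. Sstr2, Galr2, Tacr2, Grp, Ghrh, Nucb2, Igf1, Adm, Nppb, Edn2, Cpe, Pcsk1, Pcsk2, Crhbp, Isl1, Jam2, Ptf1a, Chat, Slc18a3, Malat1, Glul, Sox9, Apoe and Car14 were named after their values were seen. Alternatives were other size factors, library totals only, other filters, DESeq2 1.42.0, a replicate block, each library left out, other denominators and FPKM.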

Additional observations from a re-analysis of the deposited data

How the results depend on the processing

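No gene was called by edgeR under other size factors, library totals only, a filter of 10 counts, the replicate block or with any 1 library left out (lowest 0, highest 0), but 2 were called with no filter and 55 by the DESeq2 Wald test, and 0 genes of the other pathway lists were called under any of these settings. Of the neuropeptide genes kept, 7 had a positive log2 fold change. This count was 5 with library totals only, and from 2 (without CrAT replicate 2) to 8 with 1 library left out. Their median of 0.68 ranged from -0.53 to 5.43 with 1 library left out, where the lone library of an arm is assumed to vary like the other group and 8 or 9 members were kept. The median log2 ratio per Gad1, 0.01, was 0.41 per summed amacrine marker and 0.36 per summed ganglion cell marker, and without CrAT replicate 2 these were 0.26, -0.03 and -0.62, an alternative chosen after seeing the data, like the at least 2-fold share. With the replicate block the median was 1.49 and 6 members were positive, and 1922 genes had an unadjusted p under 0.05, against 815 without it. Deviations of same-numbered libraries correlated over genes (r = 0.389, 19638 genes), but with 2 libraries a group the numbers were not shown to pair the samples. Gal and Vip stayed above 0 in all 10 alternatives. The alternatives reuse the values by which the genes were chosen, so nothing is read from this. Npy and Penk changed sign in 1 each, Adcyap1 and Cartpt in 2, Tac1 in 3 and Cck in 4. The cause of these changes was not tested. Depth limits Sst, which was at or under 3 counts in every library.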

Other observations

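The lowest sum of the 10 neuropeptide genes was in MCS replicate 1, but only with Cartpt counted. Without Cartpt its sum was 47.8 CPM, above 46.4 CPM in MCS replicate 2 and 32.1 CPM in CrAT replicate 1. MCS replicate 1 also stood apart in nuclear retained RNA, of which 5 genes summed to 435 and 416 CPM in CrAT against 1356 and 363 CPM in MCS. Most of this sum was 1 gene, Malat1, at 393 and 367 CPM in CrAT against 1278 and 307 CPM in MCS. The part of this in the low counts of Tac1, Adcyap1 and Vip there was not tested. Npy was the member whose highest library this was, at 41.9 CPM.

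Transcripts of Mueller glia, the main glial cells of the retina, summed to 15930 and 12950 CPM in CrAT against 23730 and 21370 CPM in MCS over 15 markers. All 15 had a log2 fold change below 0 (median -0.53) and 0 passed the adjusted threshold in edgeR, with 4 at an unadjusted p under 0.05 (Glul, Sox9, Apoe and Car14). In 11 of them the CrAT libraries were both below the MCS libraries, as in 16.6% of the genes tested. The part of this difference in the neuropeptide values was not tested either.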
